A study of Bos taurus with 6 samples.

Results

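Alpha-arrestins are a family of adaptor proteins with an arrestin fold, represented in mammals by the ARRDC proteins and by TXNIP, the thioredoxin-interacting protein. Their arrestin domains bind membrane proteins, and PPxY motifs in the tails of most members recruit ubiquitin ligases of the NEDD4 type, so that receptors and transporters are marked for endocytosis and lysosomal sorting. TXNIP also binds thioredoxin and restrains glucose uptake, and its gene and that of ARRDC4 are known targets of the glucose-sensing transcription factors MLXIP and MLXIPL in mammalian cells. Of 24036 probe sets in the deposited table, all that the platform's annotation assigned to ARRDC1, ARRDC2, ARRDC3, ARRDC4 or TXNIP were taken. They were 3 probe sets of 2 of the 5 genes, namely 2 for ARRDC2 and 1 for ARRDC1. No probe set was annotated to ARRDC3, ARRDC4 or TXNIP under the symbol or the gene identifier of the current gene table, and these genes were not analysed here. The family was proposed with the differences between these arrays known, so the values of its members are given as a description.

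The arrays held 3 pools of late degenerative bovine embryos and 3 pools of blastocysts, each of 20 embryos produced by in vitro fertilization and graded by morphology at day 8. All embryos had passed through compaction. Those called degenerative had then failed to become blastocysts, whereas the blastocysts had a visible inner cell mass and a fluid-filled cavity. The embryos derived from oocytes of abattoir ovaries and from a small set of bulls shared among the pools, and all were grown in the same medium, with no treatment of either group.

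Expression was measured on the Affymetrix Bovine Genome Array as GCRMA values on the log2 scale, where a difference of 1 is a doubling. The lowest value of the table was 2.12, called the floor here, and each array had 27.4% to 28.6% of its values within 0.01 of that. Pearson's r between pools, across the 18937 probe sets tested, was 0.936 to 0.987 among degenerative pools and 0.972 to 0.994 among blastocyst pools. The epithelial keratin KRT18 was at 15.17 to 15.52 in degenerative pools and at 15.26 to 15.65 in blastocyst pools. The pluripotency factor POU5F1 was at 12.65 to 13.32 in degenerative pools and at 12.34 to 12.60 in blastocyst pools. Both groups thus expressed both of these genes. They do not stand for all lineage markers, some of which differed more between the groups and are given below. No probe set was named for the markers CDX2 and NANOG.

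ARRDC2 (gene ID 523285), an alpha-arrestin, was far higher in degenerative embryos in the first of its probe sets. This probe set was at 8.01, 7.68 and 7.38 in degenerative pools A, B and C, against 3.91, 4.89 and 4.44 in blastocyst pools A, B and C. The groups did not overlap, as was the case in the same direction for 6.48% of all probe sets tested, and a gap of 2.49 separated the lowest degenerative pool from the highest blastocyst pool. The means were 7.69 ± 0.32 in degenerative embryos and 4.42 ± 0.49 in blastocysts (SD, n = 3 pools each), a log2 difference of 3.27 (standard error 0.31 from limma) or 9.68-fold. With any 1 pool left out the difference stayed between 3.02 and 3.51, or 8.13-fold to 11.4-fold. Between pools of the same letter it was 4.10 for A, 2.79 for B and 2.93 for C. In pools of whole embryos, fewer cells of a type and less RNA per cell cannot be told apart.

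**Figure D1:**
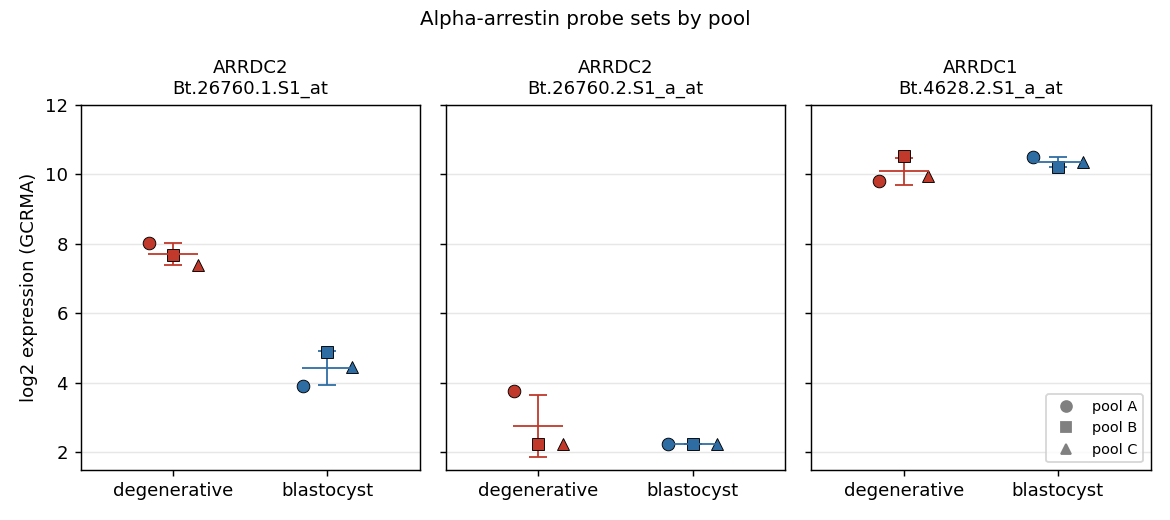
Log2 GCRMA values (vertical axis) of the 3 alpha-arrestin probe sets in degenerative embryos (red, left in each panel) and blastocysts (blue, right). Each point is a pool of 20 embryos with a marker shape for its letter, and the horizontal lines and bars are group means and SD. The first ARRDC2 probe set lies between 7.38 and 8.01 in degenerative pools, above all blastocyst pools. The second ARRDC2 probe set is raised in degenerative pool A alone, and the ARRDC1 pools overlap.

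A level of 5 on the log2 scale was reached by this ARRDC2 probe set in all 3 degenerative pools and in no blastocyst pool, a pattern found for 30 of the 18937 probe sets tested, or 0.158%. Signals below that level are dim and compressed by the floor, so the fold change depends on how low the true blastocyst level was. Ranked by the rise in degenerative embryos, the probe set stood at 16 of all those tested. The 15 with a larger rise, of which 10 carried a single gene symbol, each had a wider spread within the groups than ARRDC2. In 13 of them the groups did not overlap, as for 6.48% of all probe sets tested in that direction. The 15 were picked by their rise in these same data, so nothing is read from that count. The pooled SD of ARRDC2 was 0.41, and 45.7% of all probe sets tested had a higher one, with a median of 0.38.

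**Figure D2:**
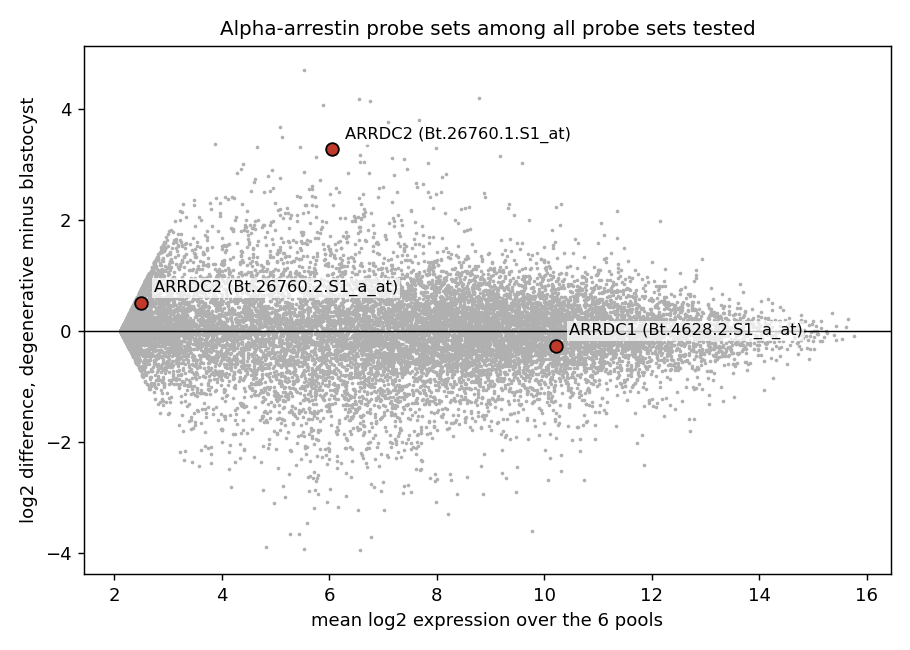
Log2 difference, degenerative minus blastocyst (vertical axis), against the mean log2 expression over the 6 pools (horizontal axis). Each grey point is 1 of the 18937 probe sets tested and the red points are the alpha-arrestin probe sets. The first ARRDC2 probe set lies at 3.27 near the upper edge, and those of ARRDC1 and the second ARRDC2 probe set lie at -0.26 and 0.51 within the bulk.

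None of the 3 member probe sets was among the 4 calls of limma at an adjusted p of at most 0.15, which were 0.0211% of all probe sets tested, nor among the 67 calls of SAM (significance analysis of microarrays) at a false discovery rate of 15%, or 0.354%. At 25%, the first ARRDC2 probe set was among those called higher by limma (6 probe sets, or 0.0317%) and by SAM (68 probe sets, or 0.359%), and the other members were called by neither. Because the family was proposed from this contrast, nothing is read from these counts. Limma kept the 25% call of ARRDC2 in 2 of the 6 fits that left out a pool (without degenerative pool A or C). SAM, with fewer relabelings in such fits than the 20 of the full set, kept it in 1 of 6 (without degenerative pool A). Limma lost this call with the pool letter as a replicate block, with arrays centred on their medians and with a trended, robust variance.

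The second ARRDC2 probe set gave little signal. It was at 3.77, 2.25 and 2.25 in degenerative pools A, B and C and at 2.25 in all 3 blastocyst pools. On the 5 arrays other than degenerative pool A it thus lay at its own lowest value, although none of its values was within 0.01 of the floor of the table. The log2 difference of 0.51 came from degenerative pool A alone and was 0.00 without that pool. Among all probe sets tested, 1992 lay at their own lowest value on 5 of the 6 arrays, and in 568 of these degenerative pool A was the raised one. In degenerative pools B and C the first ARRDC2 probe set stood above every blastocyst pool while the second was at its lowest value. A probe set at its own lowest value may fail to detect its transcript. The second thus neither bears out nor contradicts the first in these pools. Both were at their highest in degenerative pool A. Which transcripts each one measures was not analysed here.

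ARRDC1 (gene ID 786098), an alpha-arrestin that recruits the ESCRT protein TSG101 to the plasma membrane and drives the budding of small vesicles, differed little. Its probe set was at 9.79, 10.52 and 9.94 in degenerative pools A, B and C, against 10.50, 10.19 and 10.35 in blastocyst pools A, B and C. Degenerative pool B was the highest of the 6 pools and the other degenerative pools the lowest, so the groups overlapped. The means were 10.09 ± 0.39 in degenerative embryos and 10.35 ± 0.15 in blastocysts (SD, n = 3 each), and the log2 difference of -0.26 was smaller than the spread among degenerative pools, which spanned 0.73. Of all probe sets tested, 48.5% had a difference of smaller size. It was between -0.48 (without degenerative pool B) and -0.12 (without degenerative pool A) with 1 pool left out, and 0.33 between the B pools.

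To find genes with a profile like that of ARRDC2, each probe set was centred on its own mean and the root mean square difference over the 6 arrays was taken. The nearest named gene to the first ARRDC2 probe set was PHLDA2, an imprinted gene that restrains placental growth in mice, at a root mean square difference of 0.28 on the log2 scale. PHLDA2 was at 9.46, 9.22 and 9.36 in degenerative pools A, B and C, against 6.10, 6.44 and 6.40 in blastocyst pools A, B and C. Both genes were thus at their lowest in blastocyst pool A and at their highest in degenerative pool A. CLIP3, a linker protein of microtubules and membranes, followed at 0.50, and was at 6.89 ± 0.76 in degenerative embryos and 4.33 ± 0.79 in blastocysts (SD, n = 3 each). TDH, a threonine dehydrogenase of mitochondria, came next at 0.56, with 7.19 ± 0.11 in degenerative embryos and 4.48 ± 0.80 in blastocysts. Since the measure is dominated by the step between the groups, it picks genes with a step of similar size. For the second ARRDC2 probe set the nearest genes were TONSL, COLEC12 and PEX5, each raised in degenerative pool A and at or near its own lowest value on the other arrays.

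**Figure D3:**
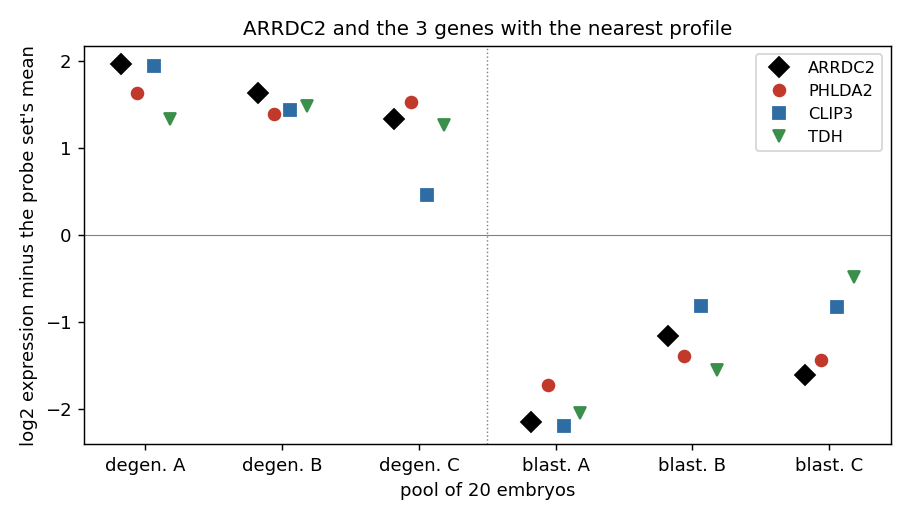
Log2 expression minus the mean of each probe set (vertical axis) in the 6 pools (horizontal axis, degenerative pools left of blastocyst pools) for the first ARRDC2 probe set (black) and the 3 genes nearest to it. PHLDA2 lies nearest, with a root mean square difference of 0.28, and all 4 genes lie above 0 in every degenerative pool and below 0 in every blastocyst pool.

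On bovine chromosome 7, ARRDC2 lies between MAST3 and CCDC124 among the genes measured here, in the gene order of the ARS-UCD2.0 assembly. The 3 nearest measured genes on each side, which were looked up after the value of ARRDC2 was known, had log2 differences from -2.64 for IFI30, a lysosomal thiol reductase, to 1.06 for SLC5A5, the sodium iodide transporter. CCDC124, a coiled-coil protein, was higher in every degenerative pool, with a difference of 0.91, and IFI30 was lower in every one. These patterns were found for 6.48% and 8.93% of all probe sets tested, and for 736 and 750 of 8189 named genes. None of the 6 was called by limma at 15%. Only 0.0211% of all probe sets tested were, so the lack of calls among these neighbours carries no information. The 4 measured neighbours of ARRDC1 on chromosome 11 differed by 0.03 to 0.35, with overlap of the groups in each.

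Genes related to alpha-arrestins by fold, partners, cargo or regulation, some only loosely, were grouped into 7 lists of 91 genes. Of these, 62 were tested, each on its brightest probe set. The thioredoxin and glucose lists relate mainly to TXNIP and ARRDC4, which had no annotated probe set here. Limma called none of the 62 at an adjusted p of at most 0.15, where it called 0.0211% of all probe sets tested. With so low a share, nothing is read from this count. At an unadjusted limma p under 0.05 there were 2 higher and 7 lower in degenerative embryos, where 3.34% of all probe sets were higher and 5.27% lower at that level. SAM called 1 at 15%, namely SLC11A2, and 6 at 25%, or 9.68%. All 6 were lower, as were 4.3% of all probe sets at that rate. For the counts of each list below, 4465 of all 8189 named genes were higher in degenerative embryos and 3724 lower. Without overlap of the groups, 736 of the 8189 were higher and 750 lower, each gene on its brightest probe set.

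**Figure D4:**
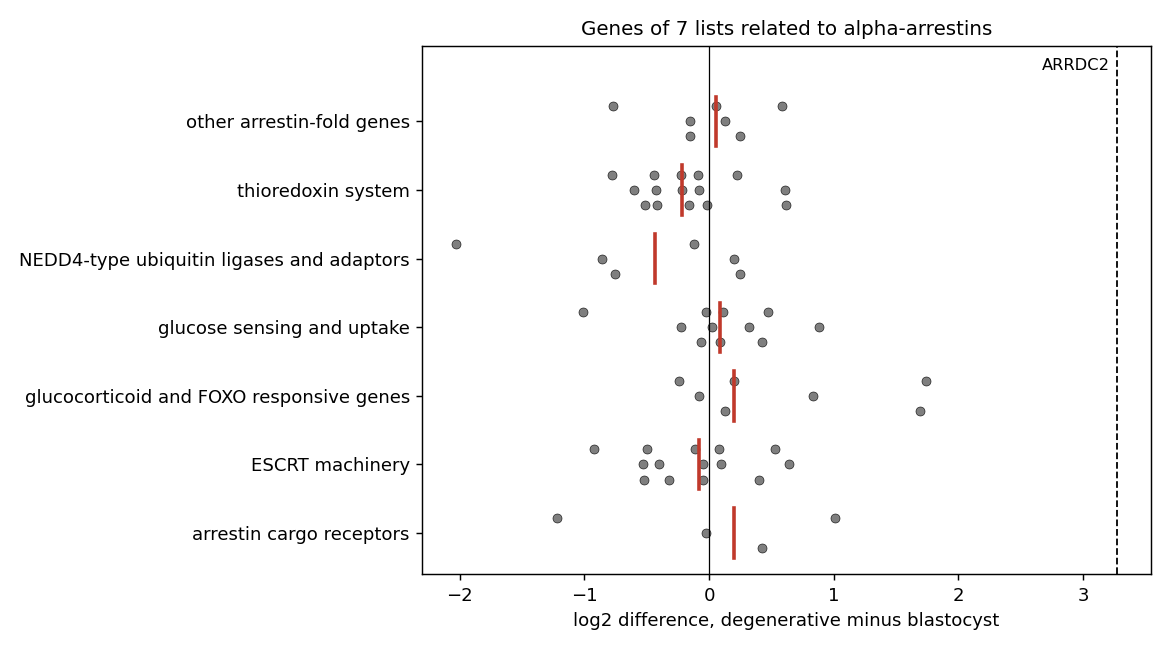
Log2 difference, degenerative minus blastocyst (horizontal axis), of the genes tested in 7 lists related to alpha-arrestins. Each grey point is a gene, with vertical offsets for legibility, red bars are list medians and the dashed line marks the first ARRDC2 probe set at 3.27. The list medians lie between -0.44 and 0.20, and no gene of the lists lies above 1.74.

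The ubiquitin ligases of the NEDD4 type, which alpha-arrestins bring to their cargo, had 6 of 11 genes tested together with their adaptors, 2 higher and 4 lower, with a median difference of -0.44 where that over all 8189 named genes was 0.02. NDFIP2, a membrane adaptor of these ligases, was at 11.11, 10.79 and 11.43 in degenerative pools A, B and C, against 12.29, 11.89 and 11.71 in blastocyst pools A, B and C (log2 difference -0.86, adjusted p = 0.514 from limma). WWP1, a ligase of the family, was at 7.67, 7.50 and 7.90 in degenerative pools and at 8.86, 8.18 and 8.30 in blastocyst pools. Both were lower in every degenerative pool, as were 3 of the 6 genes and 8.93% of all probe sets tested, and both were called by SAM at 25%, where 4.3% of all probe sets tested were called lower. ITCH, another ligase, was at 4.12, 7.19 and 7.36 in degenerative pools A, B and C and at 8.44, 8.28 and 8.05 in blastocyst pools, so degenerative pool A carried much of its difference of -2.03 and neither test called it.

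The ESCRT machinery, which sorts ubiquitinated cargo into multivesicular bodies and serves ARRDC1 in vesicle budding, had 14 of 16 genes tested, 5 higher and 9 lower, with a median difference of -0.08. CHMP2B, a filament subunit of ESCRT-III, was at 7.96, 8.07 and 8.47 in degenerative pools A, B and C, against 9.21, 9.10 and 8.95 in blastocyst pools (log2 difference -0.92, adjusted p = 0.416 from limma). VPS37A, a subunit of ESCRT-I, differed by -0.52 and CHMP5, of the ESCRT-III family, by -0.53. SAM called these 3 of the 14 genes at 25%, against 4.3% of all probe sets tested called lower, and in each the groups did not overlap, as for 8.93% of all probe sets tested in that direction.

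In the list of proteins known as arrestin cargo, 4 of 7 genes were tested. SLC11A2, a transporter of divalent metals that ARRDC1 and ARRDC4 direct to NEDD4-type ligases in cultured cells, was at 8.50, 8.41 and 8.61 in degenerative pools A, B and C, against 9.54, 9.68 and 9.96 in blastocyst pools (log2 difference -1.22, adjusted p = 0.227 from limma). SAM called it lower at 15%, but the study had already picked it from these arrays, so its place in the list is no independent evidence. The study also reported SLC11A2 as lower by real-time RT-PCR, in RNA from other embryo pools. The glucose transporter SLC2A1, removed from the surface by TXNIP in cultured cells, was at 12.55, 11.41 and 10.81 in degenerative pools and at 11.52, 11.04 and 10.94 in blastocyst pools, with overlap. The insulin receptor INSR was at 2.73 and 2.71 in degenerative pools B and C and at 3.17 and 3.24 in blastocyst pools B and C. It was higher in both A pools, most in the degenerative one, and its difference of 1.01 had a standard error of 1.64.

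The thioredoxin system, whose central protein TXN is the binding partner of TXNIP, had 15 of 19 genes tested. Of these, 3 were higher and 12 lower, with a median difference of -0.22, where 4465 of all 8189 named genes were higher and 3724 lower. TXN itself was at 12.64, 13.13 and 13.38 in degenerative pools A, B and C, against 13.52, 13.69 and 13.75 in blastocyst pools (log2 difference -0.60, adjusted p = 0.568 from limma), with no overlap between the groups. PRDX4, a peroxiredoxin of the endoplasmic reticulum, was higher in every degenerative pool, with a difference of 0.62 (adjusted p = 0.517 from limma). PRDX3, its mitochondrial relative, differed by -0.44 with overlap of the groups. Of the 15 genes, 1 was lower without overlap and 1 higher. Over all probe sets tested these shares were 8.93% and 6.48%, so nothing is read from the 2 genes.

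Of the glucose sensing and uptake genes, 11 of 16 were tested, 7 higher and 4 lower, with a median of 0.09. None had an unadjusted limma p under 0.05, where 3.34% of all probe sets tested were higher and 5.27% lower. Among so few genes nothing is read from this count. MLXIP differed by -0.22, its partner MLX by 0.02, and MLXIPL lay near the floor, at 2.13 to 2.33 in all pools. The smallest p in the list belonged to PRKAA1, PRKAG1 and HK1, subunits of the energy sensor AMPK and a hexokinase, whose differences of -1.01, 0.88 and 0.47 did not pass either test. In the list of genes responsive to glucocorticoids or FOXO factors, 7 of 15 were tested. DDIT4, an inhibitor of mTORC1 induced by stress, was at 12.71, 12.03 and 11.22 in degenerative pools A, B and C, against 9.55, 10.41 and 10.79 in blastocyst pools (log2 difference 1.74, adjusted p = 0.532 from limma). Its groups did not overlap, as for 6.48% of all probe sets tested and 736 of 8189 named genes in that direction, and neither test called it. PDK4, a kinase that inhibits pyruvate dehydrogenase, was at 7.19 in degenerative pool A and at 2.68 to 3.35 in the other pools, and the stress protein SESN1 differed by 0.13.

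Among the other proteins with an arrestin fold, 7 of 9 genes were tested, and their differences lay between -0.77 for the beta-arrestin ARRB2 and 0.58 for VPS26C, a subunit of the retriever complex. ARRB2 was dim, at 2.46, 4.28 and 4.28 in degenerative pools A, B and C and at 4.04 to 4.75 in blastocyst pools. VPS26C was at 9.88, 8.10 and 6.78 in degenerative pools and at 7.47 to 7.97 in blastocyst pools. Degenerative pool A thus carried much of both differences. The retinal arrestin SAG differed by 0.13. In all 7 the groups overlapped, and none was called by either test. Overlap was also the usual case, since only 6.48% of all probe sets tested were higher without it and 8.93% lower. SAM at 25% called 0.359% of all probe sets tested higher and 4.3% lower.

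Some measures of cell makeup and RNA also differed between the groups. Of 10 trophectoderm markers 6 were tested, and their log2 values summed to 60.4 to 64.9 in degenerative pools and 66.3 to 70.3 in blastocyst pools. Most of the gap between these sums came from TFAP2A, IFNT2 and PTGS2, with differences of -2.90, -1.005 and -1.005, whereas KRT8, KRT18 and TEAD4 differed by -0.04, -0.06 and 0.02. IFNT2 was at 10.45, 13.02 and 13.33 in degenerative pools A, B and C, against 13.32, 12.96 and 13.54 in blastocyst pools. Its groups overlapped, and degenerative pool A carried much of its difference. Of 5 inner cell mass and epiblast markers 2 were tested, with sums of 20.7 to 22.8 in degenerative pools and 20.0 to 20.4 in blastocyst pools. For 5 of 6 hypoblast markers the sums overlapped, at 49.9 to 50.4 in degenerative pools and 46.8 to 50.5 in blastocyst pools. For 9 of 11 markers of cumulus and granulosa cells they were 41.1 to 58.7 in degenerative pools and 41.4 to 55.3 in blastocyst pools, with INHA within 0.01 of the floor on all arrays, and the other two, AMH and FOXL2, lay at the floor on all arrays and were not tested. Members of this list differed in opposite directions, by 3.02 for PTX3 and -2.08 for CYP19A1, both with overlap of the groups. INHBA, a subunit of activin and inhibin, was at 8.70, 9.03 and 7.84 in degenerative pools A, B and C, against 3.71, 6.64 and 7.68 in blastocyst pools (log2 difference 2.51, adjusted p = 0.624 from limma). Its groups did not overlap, as for 6.48% of all probe sets tested and 736 of 8189 named genes in that direction. For 3 of 6 markers of spermatozoa the sums were 10.1 to 11.7 in degenerative pools and 9.99 to 13.0 in blastocyst pools. As a sign of RNA quality, the 3' minus the 5' control probe sets of GAPDH differed by 2.48 to 2.52 in degenerative pools and 1.83 to 2.89 in blastocyst pools. For actin, whose 5' probe set lay at its own lowest value on all arrays, the values were 2.29 to 4.94 in degenerative pools and 5.37 to 6.65 in blastocyst pools. For EIF4E, added after the values were seen, they were 9.13 to 9.87 in degenerative pools and 6.60 to 8.59 in blastocyst pools. The part of these measures in the difference of ARRDC2 was not tested.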

How the data were processed

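The authors' deposited values were log2 expression values per probe set, computed by GCRMA (2.14.1 according to the submitters' processing notes) with a sequence-based background correction, quantile normalization and median polish. Arrays have no read depth, and their number limits the precision. The members and the lists were chosen with earlier results of these data known.

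Of 24036 probe sets, 20 controls and 5079 that did not vary were dropped. Differences are degenerative minus blastocyst, tested over the other 18937 with limma 3.58.1 in R 4.3.3 (lmFit, eBayes, Benjamini-Hochberg, adjusted p of at most 0.15). SAM was recoded after siggenes, over 20 relabelings, and fewer where a pool was left out. Both were tested on simulated data. The pools held different embryos from a shared set of bulls, so p-values reflect how pools of a group varied.

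Probe sets were named by the platform annotation, with symbols brought up to date by gene identifier from the gene table of ARS-UCD2.0. Of those tested, 11002 had 1 symbol, 64 several and 7871 none. Sequences were not used here. Genes named were all member probe sets, up to 3 per list with the smallest limma p, and the 3 nearest profiles to a member that spanned at least 1. Others were picked with their values in view.

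No source says that the pool letters stand for a day or batch. Pools of the same letter deviated together from their group means (r = 0.373 for A, 0.180 for B and 0.275 for C across probe sets), although for B a pool of another letter reached 0.374. As every same-letter r was above 0.1, they were treated as pairs in a fit with a replicate block. That fit called 0 probe sets in place of 4.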

Additional observations from a re-analysis of the deposited data

How the results depend on the processing

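The difference of the first ARRDC2 probe set was between 3.02 and 3.51 over the 10 alternatives and that of ARRDC1 between -0.48 and -0.12. That of the second ARRDC2 probe set was 0.00 without degenerative pool A and otherwise 0.51 to 0.76, and the filter on dim probe sets removed it. Between pools of the same letter, a comparison chosen after seeing the data, the first ARRDC2 probe set differed by 4.10 for A and 2.79 for B, the second by 1.52 for A, and ARRDC1 by -0.71 for A and 0.33 for B. The replicate block and the trended, robust variance leave the differences themselves as they are. Centring each array on its median moved the median of all probe sets by 0.03. The first ARRDC2 probe set kept its 25% limma call in 3 of the 10 alternatives (the dim filter and without degenerative pool A or C).

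The counts of calls were far less stable. At 15%, limma called 4 probe sets, 1 with arrays centred, 1 with the dim filter, 1 with the trended, robust variance, 0 with the replicate block (1789 at an unadjusted p under 0.05), 1 to 42 with 1 pool left out (42 without degenerative pool A), and 30 at a threshold of 0.25. SAM called 67, 35 with arrays centred, 807 with the median number of false calls, 883 at 25%, and 0 without any 1 pool, where limma called 1 to 42. With a pool left out SAM has fewer relabelings than the 20 of the full set. Its counts of 0 are thus no measure of dependence on a pool alone. No gene of the 7 lists was called by limma at 15% under any of the 11 settings run for each list. Limma called at most 42 of all probe sets at 15% in any of these settings. A count of 0 among so few genes could hardly have come out otherwise, and nothing is read from it. The dim blastocyst signals of ARRDC2 limit how well its fold change is known, and 3 pools a group limit the rest.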
